A study of Mus musculus with 9 samples.

Results

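The genes described here are 39 interferon-stimulated genes outside the OAS family, chosen by symbol from the 32671 genes of the deposited gene table. All 39 had a row, and all 39 passed the filter on low counts and were tested with 20794 genes in all. They were measured in poly(A) RNA of whole lung from wild-type C57BL/6 mice at day 21, with 3 libraries in each of 3 groups. The LNP group was challenged with bleomycin and treated with inhalable mCas9/gSting@DOPS LNPs, lipid nanoparticles whose label names the nuclease Cas9 and a guide against Sting. The bleomycin group had the same challenge without the particles, and the drug breaks DNA and provokes inflammation and fibrosis of the lung. The control group received saline. No group with particles that lacked the guide was analysed here, so an effect of the guide and an effect of the particle cannot be told apart. Whether each library of a group is a separate animal is not stated by the labels, and the p-values here reflect only the spread among these libraries, which may be technical. In whole tissue, fewer cells of a type and less RNA per cell cannot be told apart.

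Interferons are secreted proteins that cells release on sensing nucleic acids of viruses, bacteria or damaged cells. STING is an adaptor of that sensing that responds to DNA in the cytosol. Type I interferon binds a receptor whose kinases JAK1 and TYK2 activate STAT2, which acts with IRF9 at interferon-stimulated response elements in the promoters of genes such as these. The products detect viral RNA, block viral entry, translation or replication, attach the ubiquitin-like protein ISG15 to other proteins, or feed back on the pathway, as IRF7 does by raising interferon transcription and USP18 by damping the receptor. Lung epithelium, endothelium, macrophages and lymphocytes can all make these transcripts.

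The letters of that element are shown for the 6 called members with the smallest p that hold a match, because the members differed from each other even where they share it. The motif searched was GAAA, any 2 bases and GAAA again, on both strands, in windows from 250 bases before to 50 bases after each start in RefSeq, build GRCm38.p6, and matches may overlap. Of the 39 members 30 had a window, and 14 of those 30 (46.7%) held a match, against 3.99% of 27025 genes with a window. The sequences run 5′ to 3′ along the strand of the gene, and capitals mark the matches, which read TTTC, 2 bases and TTTC where the motif lies on the other strand.
Stat2: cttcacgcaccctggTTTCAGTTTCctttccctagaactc
Ifit3: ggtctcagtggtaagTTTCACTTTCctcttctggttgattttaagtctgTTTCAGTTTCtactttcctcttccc
Apobec3: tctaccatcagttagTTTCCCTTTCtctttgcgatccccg
Trim21: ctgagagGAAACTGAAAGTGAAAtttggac
Isg15: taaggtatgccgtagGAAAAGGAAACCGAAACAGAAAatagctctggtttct
Rsad2: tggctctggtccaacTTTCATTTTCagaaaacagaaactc

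In GRCm38.p6 these stretches lie at chr10:128270261-128270300 on the plus strand for Stat2, chr19:34583358-34583431 on the plus strand for Ifit3, and chr15:79892253-79892292 on the plus strand for Apobec3. Those of Trim21, Isg15 and Rsad2 lie on the minus strand at chr7:102565447-102565476, chr4:156200860-156200911 and chr12:26456548-26456587. The 52 bases of Isg15 hold 3 overlapping matches, the first 78 bases before the start. The Trim21 matches overlap each other and begin 13 bases after the start. The 74 bases shown for Ifit3 are identical in all 74 positions to those of Ifit3b, its neighbour on chromosome 19. These 6 genes did not share a direction after bleomycin, since Ifit3 and Isg15 were called higher, Stat2 and Trim21 lower, and Apobec3 and Rsad2 in neither direction. Irf7, Irf9, Cmpk2, Sp100 and Lgals3bp, which are described in detail here, had no match in this window. No window was used for Usp18, Ifi27l2a, Parp9, Dhx58, Parp14, Zbp1, Rtp4, Mx1 and Mx2. A second motif, TTC, any 3 bases and GAA, the core of gamma-activated sites, was in the windows of 7 of 30 members (23.3%), against 9.55% of genes. A match is a description of letters and not a bound site.

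Each library held between 56047830 and 69404903 counts in the deposited gene table. Markers of alveolar type 2 cells, which make surfactant, summed to 6424 to 28243 CPM (counts scaled to library depth and, by TMM, between libraries) over the 9 libraries, so none lacked them, although they were lower in every bleomycin library than in every control library. Sting1, the gene the guide is named for, was at 51.8, 62 and 44.3 CPM in LNP libraries, 53.8, 41.5 and 40.5 CPM in bleomycin libraries and 18.4, 23.9 and 20.9 CPM in control libraries. It was not called between LNP and bleomycin lung (log2 fold change 0.22 ± 0.17 SE, adjusted p = 0.48), and whole-gene counts do not show whether DNA was cut. The third LNP replicate was unlike the rest, with skeletal muscle markers at 7808 CPM against at most 53 CPM, and squamous epithelium markers at 1769 CPM against at most 32.8 CPM. LNP replicate 3 was the lowest LNP library for 33 of 39 members, against 42.5% of all genes tested, and lay more than 2-fold below the log2 mean of the other LNP libraries for Parp14, Cmpk2, Isg20, Sp100 and Ifi44. Control replicate 2 was the lowest control library for 25 of 39 members, against 32.5% of all genes, and lay more than 2-fold below the log2 mean of the others for Ifit2, Herc6, Ifih1, Ddx60, Samd9l and Ifi44. In control replicate 2 genes whose main transcript exceeds 5000 bases had a median log2 difference from the other control libraries of -0.10, and genes under 1500 bases one of 0.10. LNP replicate 3 had -0.10 and 0.07 against the other LNP libraries. Whether transcript length or RNA quality had a part in the low members of these libraries was not tested.

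**Figure D1:**
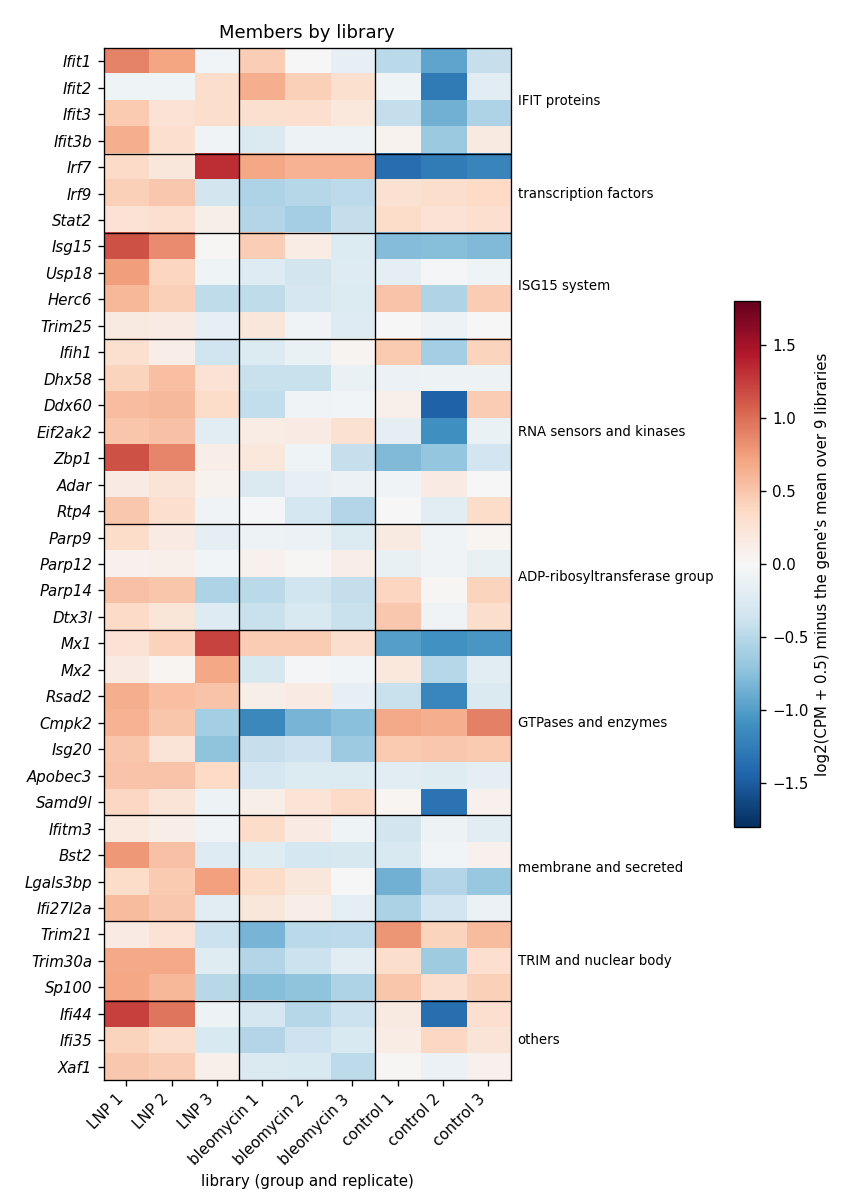
Level of each of the 39 members (rows, grouped by role) in each of the 9 libraries (columns), as log2(CPM + 0.5) minus the mean of that gene over the 9 libraries. Irf7 and Mx1 are low in the 3 control libraries, whereas Irf9, Stat2, Cmpk2 and Sp100 are low in the 3 bleomycin libraries, and LNP replicate 3 and control replicate 2 differ from the other libraries of their groups.

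Per length, the members spanned a wide range of levels. Ifitm3, a membrane protein that blocks virus entry, was the highest, at 487 ± 45.7 FPKM in LNP, 466 ± 43 FPKM in bleomycin and 385 ± 22.4 FPKM in control lung (SD, n = 3 libraries each). FPKM counts fragments per length of transcript and per depth of library, as scaled by the authors. Its values were 521, 505 and 435 FPKM in LNP libraries, 506, 473 and 421 FPKM in bleomycin libraries, and 359, 399 and 397 FPKM in control libraries, so every LNP and bleomycin library lay above every control library. Bst2, Lgals3bp, Ifi27l2a and Ifit3 followed in the mean over 9 libraries, with 122, 93.1, 55.3 and 47.2 FPKM. In bleomycin lung Bst2 and Lgals3bp did not differ beyond their spread (92.7 ± 2.31 and 94.9 ± 6.47 FPKM), and neither did Ifi27l2a and Ifit3 (53.3 ± 4.96 and 51.8 ± 1.93 FPKM). Ddx60, an RNA helicase, was the lowest, at 0.505, 0.514 and 0.41 FPKM in LNP libraries, 0.196, 0.283 and 0.297 FPKM in bleomycin libraries, and 0.341, 0.0758 and 0.457 FPKM in control libraries. The LNP libraries lay above the bleomycin libraries for Ddx60 and overlapped the control libraries.

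Bleomycin lung was compared with control lung to ask how the members stand in injured lung without particles. They divided: 6 of 39 were called higher, where 15.2% of all genes tested were, and 8 of 39 were called lower, where 18.5% were. The members' median log2 fold change was -0.18, against -0.05 over all genes, and 16 of 39 estimates (41.0%) were above 0, against 47.6% of all genes. For 12 members every bleomycin library lay above every control library (25.9% of all genes did so), and for 15 every one lay below (29.6% of all genes). The shares of members called and without overlap were thus near those of all genes. The called members were Ifit2, Ifit3, Irf7, Isg15, Mx1 and Lgals3bp upward, and Irf9, Stat2, Dtx3l, Cmpk2, Isg20, Trim21, Sp100 and Ifi35 downward. Without LNP replicate 3, 11 members were called higher and 9 lower, against 20.5% and 22.1% of the 21373 genes then tested.

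Among the transcription factors, Irf7 was 3.85-fold higher in bleomycin lung, whereas Irf9 and Stat2 were 1.79-fold and 1.78-fold lower. Irf7 was at 94.6, 90.6 and 90.1 CPM in bleomycin libraries and 22.2, 24 and 25.3 CPM in control libraries (log2 fold change 1.95 ± 0.27 SE, adjusted p = 0.00077). Irf9 was at 36.9, 38.1 and 39.3 CPM in bleomycin libraries, against 65.8, 68.1 and 70.4 CPM in control libraries (-0.84 ± 0.19, adjusted p = 0.0094). Stat2 was at 24.8, 23.3 and 26.6 CPM in bleomycin libraries, against 45.5, 43.1 and 44.4 CPM in control libraries (-0.83 ± 0.12, adjusted p = 0.00087). In all 3 genes the libraries of each group lay close together and the groups did not overlap. Within a library the ratio of Irf7 to Irf9 in FPKM was 3.66, 3.39 and 3.27 in bleomycin lung, against 0.479, 0.502 and 0.511 in control lung, so the order of these 2 factors differed between the groups. The deposited table places Irf7 (ENSMUSG00000025498) on chromosome 7, minus strand, from 140842619 to 140846394. There Irf9 (ENSMUSG00000002325) lies on chromosome 14 from 55841028 to 55847487 and Stat2 (ENSMUSG00000040033) on chromosome 10 from 128106428 to 128128718, both on the plus strand, in a genome build that the sources used here do not give.

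The remaining rises after bleomycin were in genes of several kinds. Mx1, a dynamin-like GTPase that blocks influenza virus, was at 5.96, 5.93 and 5.35 CPM in bleomycin libraries and 1.86, 1.7 and 1.76 CPM in control libraries (3.24-fold, log2 fold change 1.70 ± 0.28, adjusted p = 0.002). Lgals3bp, a secreted glycoprotein that binds galectins, was at 341, 312 and 272 CPM in bleomycin libraries and 148, 187 and 169 CPM in control libraries (0.88 ± 0.16, adjusted p = 0.0028). Ifit3, an IFIT protein whose human counterpart binds and stabilises IFIT1, was at 105, 106 and 97.5 CPM in bleomycin libraries and 63.3, 47 and 58.4 CPM in control libraries (0.87 ± 0.14, adjusted p = 0.0015). In these 3 genes every bleomycin library lay above every control library. Isg15, the ubiquitin-like modifier, was at 23.1, 18.5 and 14.1 CPM in bleomycin libraries, against 9.54, 9.72 and 9.46 CPM in control libraries (0.95 ± 0.28, adjusted p = 0.026). Ifit2, another RNA-binding IFIT protein, was at 37.4, 32 and 29 CPM in bleomycin libraries, against 22.3, 9.51 and 20.5 CPM in control libraries (0.91 ± 0.28, adjusted p = 0.034). The groups did not overlap in either gene, but both calls depended on single libraries. Isg15 was not called without bleomycin replicate 1 or 2 or any control replicate (adjusted p = 0.064 to 0.1), and Ifit2 was not called without any bleomycin replicate or control replicate 3 (adjusted p = 0.052 to 0.11).

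The members that were lower in bleomycin lung included enzymes and nuclear body proteins. Cmpk2, a mitochondrial nucleotide kinase, was 3.27-fold lower, at 8.24, 10.4 and 11.1 CPM in bleomycin libraries, against 30.7, 30.2 and 36.2 CPM in control libraries (-1.71 ± 0.29, adjusted p = 0.0022). Trim21, a ubiquitin ligase that binds antibodies in the cytosol, was at 6.44, 8.35 and 8.39 CPM in bleomycin libraries, against 20.9, 15.8 and 17.8 CPM in control libraries (-1.23 ± 0.22, adjusted p = 0.0026). Sp100, a component of PML nuclear bodies, was at 36.8, 38.1 and 42.7 CPM in bleomycin libraries, against 88.8, 78.7 and 85.1 CPM in control libraries (-1.10 ± 0.26, adjusted p = 0.01). The bleomycin libraries lay below all control libraries in each of these genes. Isg20, an RNA exonuclease, was at 18.7, 19.2 and 15.7 CPM in bleomycin libraries, against 34.9, 35.4 and 34.8 CPM in control libraries (-0.97 ± 0.26, adjusted p = 0.019). Its groups were apart as well, yet it was not called without any 1 of the bleomycin replicates, control replicate 1 or control replicate 3 (adjusted p = 0.051 to 0.064). Dtx3l, the ubiquitin ligase partner of PARP9, and Ifi35, which binds the interferon-induced protein NMI, fell by 0.63 ± 0.19 and 0.64 ± 0.18 on the log2 scale (adjusted p = 0.029 and 0.022). Dtx3l lost its call without any bleomycin replicate, control replicate 1 or control replicate 3 (adjusted p = 0.071 to 0.11), and Ifi35 without bleomycin replicate 1 or 2 or control replicate 2 or 3 (adjusted p = 0.057 to 0.087).

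The neighbouring genes Rsad2 and Cmpk2, 12751 bases apart on chromosome 12 in the deposited table, did not move alike. Rsad2, or viperin, makes a nucleotide that ends viral RNA chains, and its substrate is supplied by the CMPK2 enzyme. In bleomycin lung Rsad2 had a log2 fold change of 0.64 ± 0.25, which was not called (adjusted p = 0.071), beside -1.71 ± 0.29 for Cmpk2. The ratio of Rsad2 to Cmpk2 in FPKM was 1.2, 0.991 and 0.738 in bleomycin libraries, against 0.222, 0.125 and 0.209 in control libraries. All bleomycin ratios were above all control ratios.

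**Figure D2:**
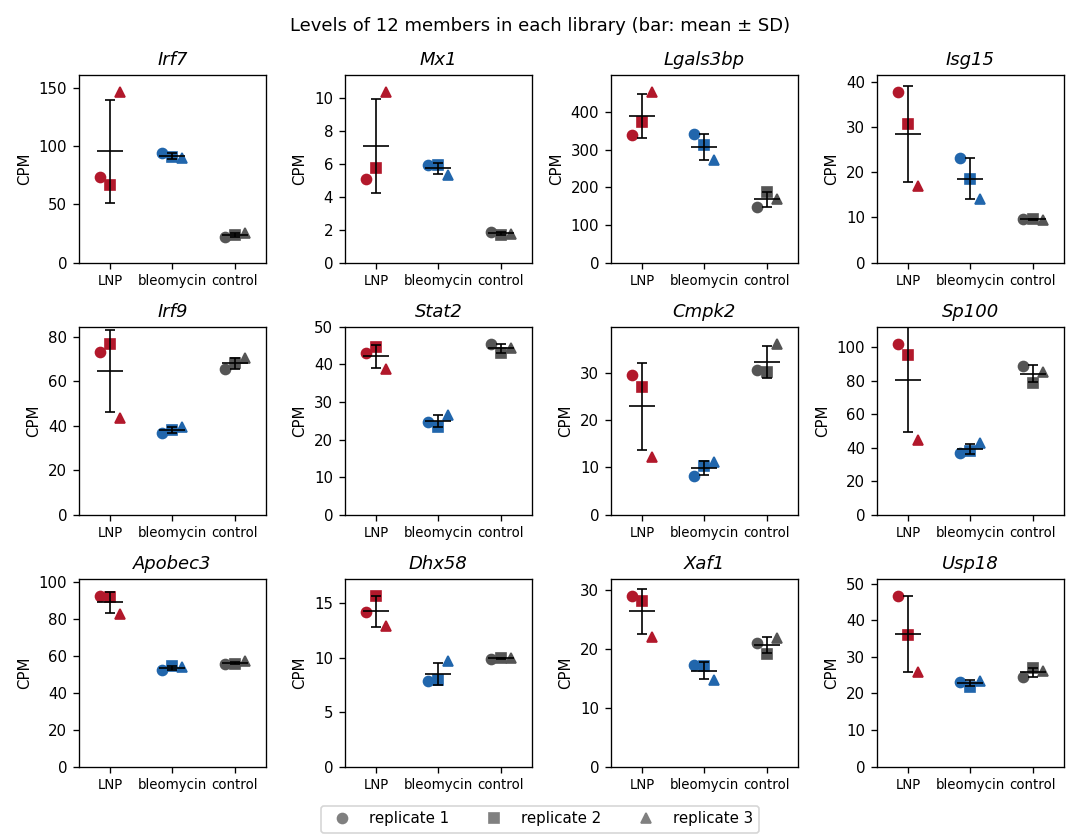
Level in CPM of 12 members in each library, with replicates 1 to 3 as circle, square and triangle, and the mean ± SD of the 3 libraries of each group as a bar. Irf7 and Mx1 are higher in LNP and bleomycin libraries than in control libraries, Irf9, Stat2, Cmpk2 and Sp100 are lowest in bleomycin libraries, and Apobec3 is higher in LNP libraries than in the libraries of both other groups.

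LNP lung was compared with bleomycin lung to ask how bleomycin-challenged lung differed with the particles. Of the members 7 of 39 were called higher, where 4.28% of all genes tested were, and none was called lower by edgeR, where 1.87% were. The called members were Stat2 and Irf9, the enzymes Apobec3 and Cmpk2, the RNA helicase Dhx58, and Sp100 and Xaf1. The members' median log2 fold change was 0.55, against 0.04 over all genes, and 35 of 39 estimates (89.7%) were above 0, against 53.1% of all genes. In 16 members every LNP library lay above every bleomycin library (15.4% of all genes did so), and in none did every one lie below (14.5% of all genes). At an unadjusted p under 0.05, 19 members were higher (15.5% of all genes were) and none lower (9.61%). DESeq2 called 13 higher and none lower, where 9.47% and 5.30% of the genes it gave an adjusted p were called. In simulated counts for this comparison DESeq2 made 64 false calls and edgeR 8, so calls by DESeq2 alone are less sure. The count of calls turned on single libraries: without bleomycin replicate 2 no member was called by edgeR, where 0.391% of all genes were called higher and 0.0837% lower and 14 members were higher at an unadjusted p under 0.05. Without LNP replicate 3, 23 were called higher and 1 lower, where 14.0% and 10.7% of all genes were. The added call downward was Irf7.

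Stat2 and Apobec3 were the calls that leaned least on any 1 library. Stat2 was at 43, 44.6 and 38.8 CPM in LNP libraries and 24.8, 23.3 and 26.6 CPM in bleomycin libraries (1.69-fold, log2 fold change 0.76 ± 0.12, adjusted p = 0.01). Apobec3, a cytidine deaminase that acts on retroviral DNA, was at 92.6, 91.9 and 82.6 CPM in LNP libraries and 52.4, 54.4 and 54.1 CPM in bleomycin libraries (1.66-fold, 0.73 ± 0.10, adjusted p = 0.0084). Every LNP library lay above every bleomycin library in both, LNP replicate 3 included. Neither was called without bleomycin replicate 2, where the estimates were 0.71 for Stat2 and 0.74 for Apobec3 (adjusted p = 0.07 and 0.061). In the deposited table Apobec3 (ENSMUSG00000009585) lies on chromosome 15 from 79775860 to 79800107 on the plus strand and overlaps 2 other genes.

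The other 5 calls had adjusted p-values of 0.027 to 0.048. Dhx58, or LGP2, a helper of RNA sensing, was at 14.2, 15.7 and 12.9 CPM in LNP libraries and 7.91, 7.96 and 9.73 CPM in bleomycin libraries (0.74 ± 0.16, adjusted p = 0.027). Xaf1, a protein that binds the cell death inhibitor XIAP, was at 29, 28.1 and 22 CPM in LNP libraries and 17.2, 17 and 14.7 CPM in bleomycin libraries (0.70 ± 0.15, adjusted p = 0.03). The LNP libraries of both genes lay above all bleomycin libraries. Cmpk2 was at 29.5, 27 and 12.3 CPM in LNP libraries and 8.24, 10.4 and 11.1 CPM in bleomycin libraries (2.32-fold, 1.21 ± 0.29, adjusted p = 0.04). Sp100 was at 102, 95.6 and 44.5 CPM in LNP libraries and 36.8, 38.1 and 42.7 CPM in bleomycin libraries (2.06-fold, 1.04 ± 0.26, adjusted p = 0.047). Irf9 was at 73.4, 76.9 and 43.4 CPM in LNP libraries and 36.9, 38.1 and 39.3 CPM in bleomycin libraries (1.7-fold, 0.76 ± 0.19, adjusted p = 0.048). In these 3 genes LNP replicate 3 lay just above the highest bleomycin library and far below the other LNP libraries. Irf9, Cmpk2 and Sp100 were not called when any 1 library other than LNP replicate 3 was left out (adjusted p = 0.062 to 0.18, 0.056 to 0.16 and 0.063 to 0.18). Dhx58 was not called without LNP replicate 1 or 2, bleomycin replicate 1 or 2, or control replicate 1 or 3, and Xaf1 was not called without these libraries or bleomycin replicate 3 (adjusted p = 0.053 to 0.13 and 0.055 to 0.12).

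Stat2, Irf9, Cmpk2 and Sp100 were called in opposite directions, lower after bleomycin against control lung and higher with the particles against bleomycin lung. Both comparisons use the same 3 bleomycin libraries, so the 2 calls of a gene are not independent. The difference between LNP and control lung was -0.07 ± 0.12 for Stat2, -0.08 ± 0.19 for Irf9, -0.50 ± 0.28 for Cmpk2 and -0.06 ± 0.26 for Sp100, none of them called. The 95% intervals ran from -0.33 to 0.18 for Stat2, from -0.51 to 0.35 for Irf9, from -1.13 to 0.14 for Cmpk2 and from -0.64 to 0.51 for Sp100. For Cmpk2 every LNP library lay below every control library.

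Irf7 did not follow Irf9 and Stat2. It was at 74, 67 and 147 CPM in LNP libraries and 94.6, 90.6 and 90.1 CPM in bleomycin libraries, with LNP replicates 1 and 2 below and LNP replicate 3 above all bleomycin libraries. Its estimate between LNP and bleomycin lung was 0.07 ± 0.26 with all libraries (adjusted p = 0.91) and -0.38 without LNP replicate 3 (adjusted p = 0.038). Irf7 was 4.03-fold higher in LNP than in control lung (2.01 ± 0.27, adjusted p = 0.0029). The ratio of Irf7 to Irf9 in FPKM was 1.44, 1.24 and 4.83 in LNP libraries, against 3.66, 3.39 and 3.27 in bleomycin libraries. Isg15 and Usp18, the modifier and the protease that removes it, were in a ratio that overlapped between LNP and bleomycin lung and was lower in control lung. Usp18 was at 46.7, 36 and 26 CPM in LNP libraries, 23.2, 21.8 and 23.3 CPM in bleomycin libraries and 24.5, 26.9 and 26.1 CPM in control libraries. Every LNP library of Usp18 lay above every bleomycin library, but the difference was not called (0.67 ± 0.19, adjusted p = 0.069). The ratio of Isg15 to Usp18 in FPKM was 3.21, 3.37 and 2.59 in LNP libraries and 3.95, 3.37 and 2.41 in bleomycin libraries, against 1.55, 1.43 and 1.44 in control libraries.

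LNP lung was also compared with control lung, which gives the members' standing against healthy lung. Of the 39 members 9 were called higher, where 4.95% of all genes tested were, and none was called lower by edgeR, where 3.08% were. They were Ifit1, Ifit3, Irf7, Isg15, Zbp1, Mx1, Rsad2, Apobec3 and Lgals3bp. The members' median log2 fold change was 0.44, against -0.00 over all genes, and 29 of 39 estimates (74.4%) were above 0, against 49.7% of all genes. In 13 members every LNP library lay above every control library (13.7% of all genes did so), and Cmpk2 and Trim21 were the 2 members in which every one lay below (15.2% of all genes). At an unadjusted p under 0.05, 15 members were higher (12.9% of all genes were) and 1 lower (11.1%). DESeq2 called 11 higher and none lower, where 8.15% and 5.04% of the genes it gave an adjusted p were called. Without LNP replicate 3, 15 were called higher and none lower, against 6.41% and 4.51% of all genes.

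Irf7, Mx1 and Lgals3bp had the highest LNP values in replicate 3, and Isg15 the lowest. Mx1 was at 5.12, 5.78 and 10.4 CPM in LNP libraries and 1.86, 1.7 and 1.76 CPM in control libraries (4-fold, log2 fold change 2.00 ± 0.29, adjusted p = 0.0037). Lgals3bp was at 339, 374 and 454 CPM in LNP libraries and 148, 187 and 169 CPM in control libraries (2.32-fold, 1.21 ± 0.16, adjusted p = 0.0027). Isg15 was at 37.8, 30.6 and 17 CPM in LNP libraries and 9.54, 9.72 and 9.46 CPM in control libraries (2.97-fold, 1.57 ± 0.28, adjusted p = 0.0092). The groups did not overlap in any of these genes. Ifit3 was at 119, 103 and 107 CPM in LNP libraries and 63.3, 47 and 58.4 CPM in control libraries (0.97 ± 0.14, adjusted p = 0.0036). Apobec3 was at 92.6, 91.9 and 82.6 CPM in LNP libraries and 55.9, 55.6 and 57 CPM in control libraries (0.66 ± 0.10, adjusted p = 0.0054). In the edgeR fit of all libraries Apobec3 was the 1 member called higher in LNP lung against both other groups, whereas DESeq2 called Dhx58, Zbp1 and Apobec3 in both. The Apobec3 bleomycin and control means were 53.6 ± 1.11 and 56.2 ± 0.772 CPM (SD, n = 3 each). These 2 comparisons share the LNP libraries.

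Zbp1, a sensor of Z-form nucleic acids that can trigger necroptosis, was 2.7-fold higher in LNP than in control lung (1.44 ± 0.28, adjusted p = 0.014). Ifit1, which binds foreign RNA caps, was 2.29-fold higher (1.20 ± 0.27, adjusted p = 0.025), and Rsad2 was 2.27-fold higher (1.18 ± 0.25, adjusted p = 0.018). All LNP libraries lay above all control libraries in the 3 genes. Zbp1 was not called without control replicate 1 or 2 (adjusted p = 0.073 and 0.05), and Rsad2 not without control replicate 1 (adjusted p = 0.056). Ifit1 was not called without LNP replicate 1 or 2 or any control replicate (adjusted p = 0.066 to 0.081).

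**Figure D3:**
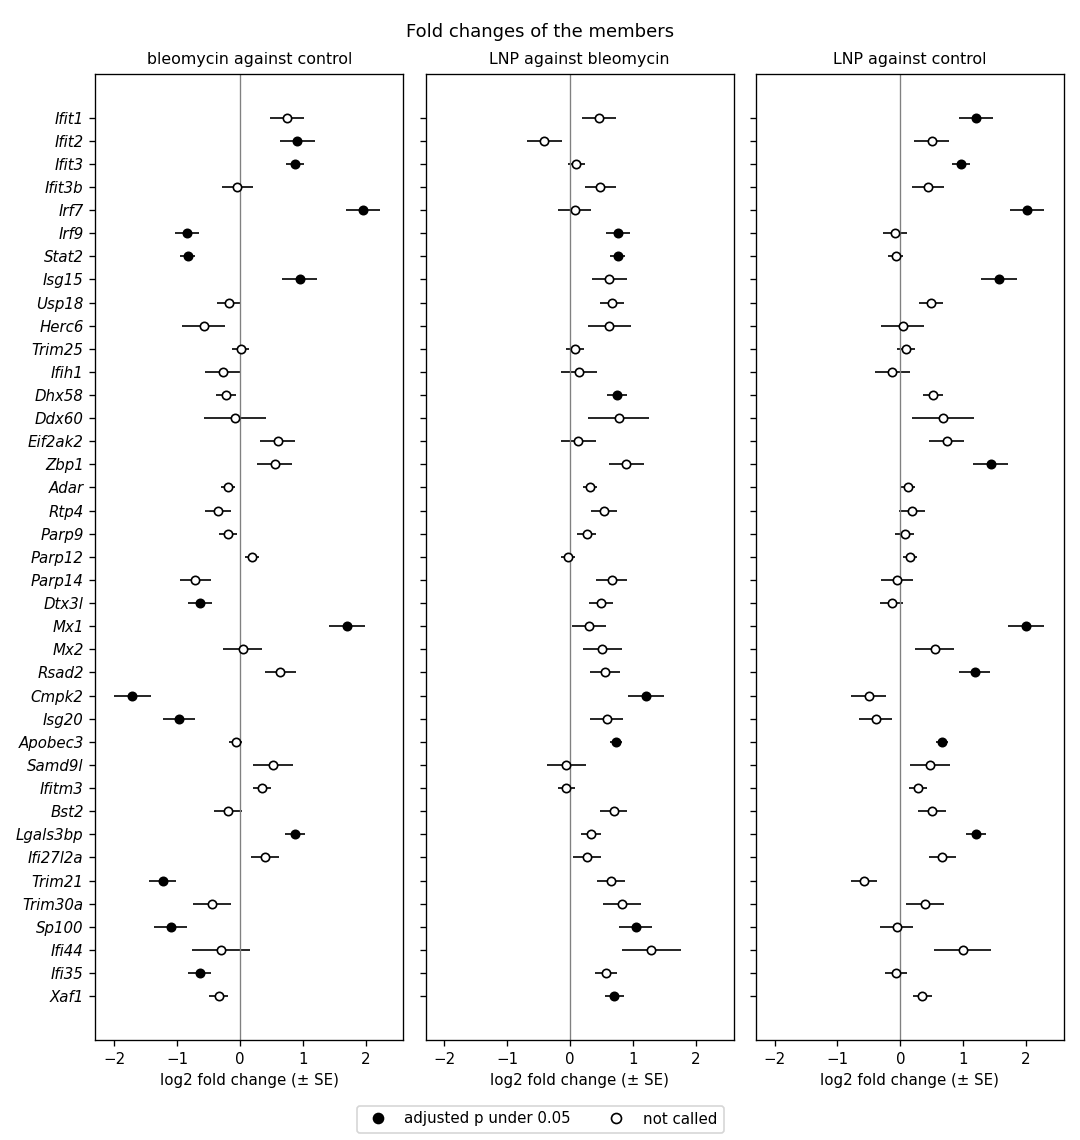
Log2 fold change of each of the 39 members ± SE in bleomycin against control, LNP against bleomycin and LNP against control lung, with filled points for an adjusted p under 0.05 in edgeR's quasi-likelihood test. The calls divide between 6 higher and 8 lower in bleomycin lung, 7 are called higher and none lower in LNP against bleomycin lung, and 9 are called higher and none lower in LNP against control lung.

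Of the 7 RNA sensors and kinases edgeR called 0 after bleomycin, Dhx58 was called higher in LNP than in bleomycin lung, and Zbp1 higher in LNP than in control lung. Over all genes 15.2% were called higher and 18.5% lower after bleomycin. In LNP lung 4.28% were called higher than in bleomycin lung and 4.95% higher than in control lung. Ifih1, or MDA5, a sensor of long double-stranded RNA, had estimates of 0.14 ± 0.28 in LNP against bleomycin lung and -0.27 ± 0.28 in bleomycin against control lung. Eif2ak2, or PKR, a kinase that halts translation, had 0.13 ± 0.28 and 0.60 ± 0.28. Adar, which deaminates adenosines in double-stranded RNA, had 0.32 ± 0.11 and -0.19 ± 0.11. None of these values was called. Of the 4 genes of the ADP-ribosyltransferase group (Parp9, Parp12, Parp14 and Dtx3l) the single edgeR call was the fall of Dtx3l after bleomycin, where DESeq2 also called Parp14 lower. Parp14 had -0.71 ± 0.25 in bleomycin against control lung (adjusted p = 0.055) and 0.66 ± 0.25 in LNP against bleomycin lung (adjusted p = 0.14). Parp12 had 0.19 ± 0.11 in bleomycin against control lung and -0.04 ± 0.11 in LNP against bleomycin lung, neither called.

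Of the 39 members 19 were not called by edgeR in any comparison: Ifit3b, Usp18, Herc6, Trim25, Ifih1, Ddx60, Eif2ak2, Adar, Rtp4, Parp9, Parp12, Parp14, Mx2, Samd9l, Ifitm3, Bst2, Ifi27l2a, Trim30a and Ifi44. DESeq2 called 6 of these in at least 1 comparison, namely Usp18, Parp14, Ifitm3, Bst2, Ifi27l2a and Ifi44. The matching shares over all genes were not computed, so neither count is read as a trait of the members. Several of the 19 had large estimates with a wide spread. Ifi44 had the largest estimate of all members between LNP and bleomycin lung, 1.29 ± 0.47 on the log2 scale (adjusted p = 0.12), with every LNP library above every bleomycin library. Bst2, or tetherin, which holds budding virus at the cell surface and also marks plasmacytoid dendritic cells in mice, had 0.69 ± 0.22 (adjusted p = 0.095). Trim30a, a ubiquitin ligase, had 0.83 ± 0.30 (adjusted p = 0.12). Without LNP replicate 3 all 3 were called, at 1.60, 0.94 and 1.07 on the log2 scale. Trim25, a ubiquitin ligase that acts on the sensor RIG-I, had estimates of 0.08 ± 0.14, 0.01 ± 0.14 and 0.09 ± 0.14 in LNP against bleomycin, bleomycin against control and LNP against control lung.

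The mean over the 39 members of log2(CPM + 0.5), after subtracting each gene's mean over 9 libraries, was 0.49, 0.40 and 0.01 in LNP libraries, -0.14, -0.14 and -0.18 in bleomycin libraries, and -0.06, -0.39 and 0.00 in control libraries. LNP replicates 1 and 2 were the highest libraries, and LNP replicate 3 lay level with control replicates 1 and 3. Control replicate 2 was the lowest of all. No test was made of this mean, which adds members that move in opposite directions.

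**Figure D4:**
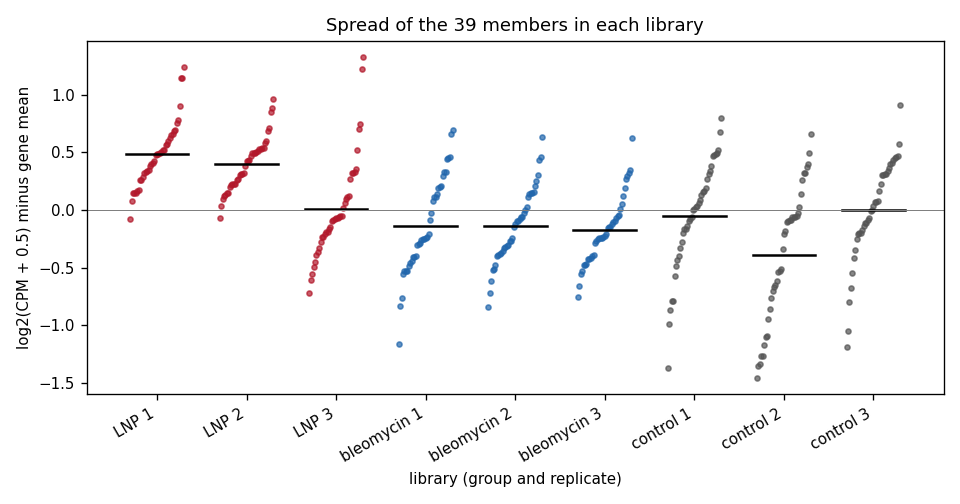
Each point is 1 of the 39 members in 1 library, as log2(CPM + 0.5) minus the mean of the gene over 9 libraries, and the bar is the mean over members. The bars stand at 0.49 and 0.40 in LNP replicates 1 and 2, at 0.01 in LNP replicate 3, between -0.18 and -0.14 in bleomycin libraries, and at -0.39 in control replicate 2.

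Across the 9 libraries the median Pearson r over the 741 pairs of members was 0.45, as a description over libraries that share group, scaling and cell content. The gene most like Irf7 was Mx1 (r = 0.99), followed by Lgals3bp (0.94) and Ifit3 (0.90), and least like it was Trim21 (-0.86). The genes most like Irf9 were Sp100 (0.99), Ifi35 (0.97) and Cmpk2 (0.97), and least like it was Ifit2 (-0.70). Isg15 was most like Ifit1 (0.96) and Zbp1 (0.96), and Apobec3 was most like Dhx58 (0.94). Over the 8 libraries without LNP replicate 3 these values were 0.98, 0.92, 0.93 and -0.87 for Irf7 with Mx1, Lgals3bp, Ifit3 and Trim21. Within groups, on deviations from the group means, Irf7 had 0.93 with Mx1 and 0.68 with Lgals3bp but -0.11 with Ifit3. Irf9 had 0.97, 0.92 and 0.96 with Sp100, Ifi35 and Cmpk2 within groups, and Apobec3 had 0.59 with Dhx58. These values include LNP replicate 3, where Irf7 was at 147 CPM against 74 and 67 CPM, and Irf9 at 43.4 against 73.4 and 76.9 CPM. Irf9 and Sp100, and Irf7 and Mx1, ranked the libraries alike in bleomycin lung but not in control lung. Values within groups without LNP replicate 3 were not computed.

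Levels of upstream genes were read from lists of ligands, receptors, sensors and regulators. Of 21 listed interferon genes 3 were found in the table and 2, Ifng and Ifnz, passed the filter, with 0 called by edgeR, 0 at an unadjusted p under 0.05 and 0 by DESeq2 in every comparison. Ifng, the type II interferon of T and NK cells, had 27 counts in LNP, 14 in bleomycin and 93 in control lung over 3 libraries, and Ifnab, a type I interferon, had 7, 13 and 0 counts. Ifng was at 0.208, 0.196 and 0 CPM in LNP libraries, 0.18, 0 and 0.0453 CPM in bleomycin libraries and 0.538, 0.469 and 0.415 CPM in control libraries, so the control libraries were highest. It was not called in bleomycin against control lung (-2.64 ± 1.23, adjusted p = 0.13) or in LNP against control lung (-1.78 ± 1.17, adjusted p = 0.4). Of 10 receptor and kinase genes edgeR called 2 higher and 2 lower after bleomycin against control lung, and 0 in either comparison of LNP lung by edgeR. Over all genes 15.2% were called higher and 18.5% lower after bleomycin. The shares were 4.28% and 1.87% in LNP against bleomycin lung, and 4.95% and 3.08% in LNP against control lung. At an unadjusted p under 0.05, 2 of these 10 were higher and 1 lower in LNP against bleomycin lung, and 1 was higher and 1 lower in LNP against control lung, and DESeq2 called 1 higher in each. At that unadjusted p 15.5% of all genes were higher and 9.61% lower in the first comparison, and 12.9% and 11.1% in the second. DESeq2 called 9.47% and 8.15% of the genes it gave an adjusted p higher in these. Ifngr2, a chain of the type II interferon receptor, was higher after bleomycin (0.71 ± 0.15, adjusted p = 0.0071). Tyk2, a receptor kinase, fell after bleomycin (-0.67 ± 0.22, adjusted p = 0.038), a call lost without LNP replicate 1, bleomycin replicate 1 or 2, or any control replicate (adjusted p up to 0.11).

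Of 13 sensing and induction genes 2 were called higher and 4 called lower after bleomycin against control lung. Of all genes 15.2% were called higher and 18.5% lower there. Tlr7, an endosomal RNA sensor, was higher (2.04 ± 0.45, adjusted p = 0.0076), while Irf1, a factor induced by interferon gamma, and Mavs, the adaptor of cytosolic RNA sensors, were lower (-1.43 ± 0.24 and -0.68 ± 0.15, adjusted p = 0.0019 and 0.0076). In LNP lung Irf8, a factor of dendritic cells, macrophages and B cells, was called higher than in bleomycin lung (0.77 ± 0.13, adjusted p = 0.013) and than in control lung (0.55 ± 0.13, adjusted p = 0.028). Irf8 was at 69.9, 83.3 and 83 CPM in LNP libraries, 47.4, 43.4 and 47.8 CPM in bleomycin libraries and 49, 59.7 and 52.7 CPM in control libraries, with the LNP libraries above all others. Both Irf8 calls were lost without LNP replicate 2 or bleomycin replicate 2 (adjusted p = 0.053 and 0.08 against bleomycin, 0.096 and 0.063 against control). The first was also lost without bleomycin replicate 1 (adjusted p = 0.055), and the second without control replicate 1 or 3 (adjusted p = 0.12 and 0.1). Tlr9, an endosomal DNA sensor, was also higher in LNP than in bleomycin lung (1.69 ± 0.43, adjusted p = 0.048), and Irf5, a factor of dendritic cells and macrophages, was higher in LNP than in control lung (0.97 ± 0.20, adjusted p = 0.019). The Tlr9 call was lost without any 1 library other than LNP replicate 3 (adjusted p up to 0.12), and the Irf5 call without LNP replicate 2 or control replicate 1 or 3 (adjusted p up to 0.09).

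Of 10 negative regulators and modifiers, 3 were called higher and 2 called lower after bleomycin against control lung. The shares over all genes were 15.2% higher and 18.5% lower. Socs3, an inhibitor of cytokine receptor kinases, was at 146, 177 and 229 CPM in LNP libraries, 565, 351 and 208 CPM in bleomycin libraries and 42.8, 54.4 and 42.3 CPM in control libraries, and was called higher in LNP and in bleomycin lung than in control lung (1.98 ± 0.33 and 3.01 ± 0.34, adjusted p = 0.0066 and 0.00034). Irf2, which competes with activating IRF factors, fell after bleomycin (-1.09 ± 0.19, adjusted p = 0.0025). Uba7, listed here although its known role is to activate ISG15 for attachment, fell after bleomycin (-1.35 ± 0.26, adjusted p = 0.0038) and was higher in LNP than in bleomycin lung (1.14 ± 0.25, adjusted p = 0.032). The second Uba7 call was lost without LNP replicate 1 or 2, bleomycin replicate 1 or 2, or control replicate 1 or 3 (adjusted p up to 0.14).

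Of 39 further interferon-stimulated genes that are not members, edgeR called 2 higher and 11 lower in bleomycin against control lung, 6 higher and 0 lower in LNP against bleomycin lung, and 3 higher and 0 lower in LNP against control lung. Of all genes 15.2% and 18.5%, 4.28% and 1.87%, and 4.95% and 3.08% were called higher and lower in these comparisons. At an unadjusted p under 0.05, 18 were higher and 2 lower in LNP against bleomycin lung (15.5% and 9.61% of all genes were). In LNP against control lung 7 were higher and 3 lower (12.9% and 11.1% of all genes). DESeq2 called 11 higher and 1 lower in the first, and 6 higher and 0 lower in the second. Of the genes it gave an adjusted p, it called 9.47% and 5.30% in the first and 8.15% and 5.04% in the second. The median log2 fold changes of these further genes were -0.24, 0.40 and 0.08 in the 3 comparisons, beside -0.18, 0.55 and 0.44 for the 39 members. Slfn2, a regulator of lymphocyte and myeloid quiescence, was higher in bleomycin (1.34 ± 0.15, adjusted p = 0.00033) and in LNP lung (0.98 ± 0.15, adjusted p = 0.0046) than in control lung. Helz2 and Trim34a fell after bleomycin (-0.95 ± 0.16 and -1.61 ± 0.28, adjusted p = 0.002 and 0.0023). Epsti1, Phf11b and Ms4a4c were called higher in LNP than in bleomycin lung by 1.47 ± 0.27, 1.44 ± 0.27 and 1.87 ± 0.38, with adjusted p = 0.018, 0.019 and 0.025. All 3 calls were lost without LNP replicate 1 or 2 or bleomycin replicate 1 or 2, and that of Ms4a4c also without bleomycin replicate 3 (adjusted p up to 0.09, 0.085 and 0.11). Ifi30, a lysosomal thiol reductase of antigen-presenting cells, was higher in LNP than in control lung (0.90 ± 0.16, adjusted p = 0.0091), except without control replicate 1 (adjusted p = 0.05). Phf11a had 1.44 ± 0.38 there (adjusted p = 0.049), a call lost without any 1 library other than LNP replicate 3 and bleomycin replicate 1 (adjusted p up to 0.15).

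Summed marker RNA of several cell types differed between the groups compared, which does not tell fewer cells from less RNA per cell. Over all genes 15.2% were called higher and 18.5% lower in bleomycin against control lung. The shares were 4.28% and 1.87% in LNP against bleomycin lung, and 4.95% and 3.08% in LNP against control lung. The 8 B cell markers summed to 164 to 169 CPM in LNP, 15.7 to 17.3 CPM in bleomycin and 131 to 186 CPM in control libraries, with 8 of 8 called higher in LNP against bleomycin lung and 8 of 8 called lower in bleomycin against control lung. The 10 T and NK cell markers summed to 70.2 to 96.7 CPM in LNP, 19.6 to 20.2 CPM in bleomycin and 89.4 to 93.8 CPM in control libraries, with 8 of 10 called higher and 10 of 10 called lower in the same comparisons. The 5 alveolar type 2 markers, of which 4 were called lower in bleomycin against control lung and 0 in LNP against bleomycin lung by edgeR, summed to 19575, 16061 and 6424 CPM in LNP, 9042, 8352 and 7698 CPM in bleomycin and 21892, 28243 and 20838 CPM in control libraries. The 5 ciliated cell markers summed to 134 to 196 CPM in LNP, 67.7 to 83.8 CPM in bleomycin and 214 to 273 CPM in control libraries, with 4 of 5 called higher in LNP against bleomycin lung and 5 of 5 called lower in bleomycin against control lung. The mean levels of Irf9, Stat2, Cmpk2 and Sp100 and the lymphocyte and ciliated marker sums were lowest in bleomycin lung. Alveolar type 2 markers were also low there, and like Irf9, Cmpk2 and Sp100 they were low in LNP replicate 3, where B cell markers were not. This was not particular to alveolar type 2 markers. Sums for T and NK cells (70.2 CPM), ciliated cells (134), endothelium (1779), alveolar macrophages (82.5) and neutrophils (56.7) were also lowest among LNP libraries in replicate 3. Those for classical (614 CPM) and non-classical monocytes (1495) were highest in it. The 8 plasmacytoid dendritic cell markers summed to 52.9, 53 and 97.2 CPM in LNP, 21.1 to 23.2 CPM in bleomycin and 47.5 to 67.6 CPM in control libraries, with Klk1 and Siglech at 0 in at least 1 library. In bleomycin against control lung 6 of these markers were called lower and 1, Runx2, higher. In LNP against bleomycin lung 3 were called higher and 0 lower. The 7 markers of monocyte-derived macrophages summed to 2243, 3567 and 4935 CPM in LNP, 7067, 6386 and 6266 CPM in bleomycin and 253, 262 and 237 CPM in control libraries, with 7 of 7 called higher in LNP and in bleomycin than in control lung. These markers, like Irf7, Mx1 and Lgals3bp, were high in LNP and bleomycin libraries and highest among LNP libraries in replicate 3. The marker sum was lower in every LNP library than in every bleomycin library, but of the 7 markers only Spp1 was called lower. In 1 of the 7 every LNP library lay below every bleomycin library (14.5% of all genes did so). Irf7, Mx1 and Lgals3bp overlapped between these groups. Neutrophil markers summed to 56.7 to 78 CPM in LNP, 271 to 648 CPM in bleomycin and 111 to 162 CPM in control libraries, and endothelial markers to 1779 to 3263, 2580 to 2909 and 4124 to 4832 CPM. The part of cell content in the members' differences was not tested.

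Transcript counts were given for the members as well. Of the Irf7 counts the main coding transcript (ENSMUST00000106023) held 72.1%, 70.1% and 38.3% in LNP libraries, 69.7%, 73.9% and 70% in bleomycin libraries, and 53.4%, 45% and 45.6% in control libraries, so its share was higher in every bleomycin library than in every control library and low in LNP replicate 3. C57BL/6 mice carry defective Mx1 and Mx2 alleles, and the main Mx1 transcript, with 71.4% of counts over all libraries, is annotated as subject to nonsense-mediated decay in GENCODE M21. The main Mx2 transcript, with 91.6% of counts, is annotated there as a polymorphic pseudogene. Shares of Mx1 transcripts differed widely between libraries of a group, with the main one at 0%, 87.5% and 90.3% in LNP libraries, so the gene total is the firmer value. Stat2 rested on a single coding transcript with 98.5% of its counts. Overlapping genes leave some members uncertain, since 15 of 39 overlap another gene in the deposited table, 13 of them on the other strand, among them Irf7 with Phrf1 and Dhx58 with Dhx58os, while Irf9 overlaps Rnf31 on its own strand. Parp9 and Dtx3l share 682 bases. The libraries mark strand, but no source used here says whether counting used it. Ifit3 and Ifit3b, and Mx1 and Mx2, are close copies whose reads may have been divided between them.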

How the data were processed

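Whole-lung poly(A) RNA of 9 mouse libraries was analysed, 3 per group, in groups and replicates taken from the labels. Tools named in the submitters' processing notes are fastp, StringTie and edgeR, while aligner and genome build were not given in the sources used here. Counts, deposited for genes and transcripts, are whole numbers without normalization, and FPKM values were scaled by the authors, per the file headers. Depth was 56047830 to 69404903 counts per library. Within each group, all pairs of libraries differed by more than sampling noise.

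The 3 comparisons were tested with edgeR 4.0.16 (quasi-likelihood F test, two-sided, TMM scaling, all 9 libraries in 1 fit) in R 4.3.3 on the deposited counts. Its low-count filter, filterByExpr, retained 20794 genes and removed 11877. Calls needed an adjusted p under 0.05 (Benjamini-Hochberg, over all genes tested) and no minimum fold. SE is the log2 fold change divided by the square root of F, 95% intervals use the t quantile at the gene's degrees of freedom in that fit, and SD is over 3 libraries. Alternatives were DESeq2 1.42.0, RLE and library-size scaling, no filter, fits of 2 groups, the replicate number as a block, limma 3.58.1 on FPKM after log2 with a pseudocount of 1 or 0.1 (15478 genes averaging at least 0.5 FPKM, or no filter), limma-voom with library weights, and leaving out each library. Leaving out LNP replicate 3 and control replicate 2 together was chosen after seeing the data. The scripts were tested on simulated counts. Where a 2-fold change was simulated, edgeR found 11% of the altered genes in LNP against bleomycin. It found 21% in bleomycin against control and 23% in LNP against control. Where the change was 4-fold, these shares were 62%, 61% and 58%. The lack of a call thus does not show that a member was unchanged. DESeq2 found 41%, 43% and 47% of the 2-fold changes, in the same order. It made 64, 58 and 57 false calls, where edgeR made 8, 4 and 3.

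Members named in every library were the 6 called ones with the smallest p per comparison and direction, Irf7, Irf9, Stat2, Isg15, Usp18, and those highest and lowest in FPKM. Pathway genes named were up to 3 called ones with the smallest p per list and comparison, beside Ifng and Ifnab, named for their role. A result on an item withheld from the text is not reported here. Members and lists were chosen with earlier results of these data known. Promoter sequences were matched by symbol to RefSeq on GRCm38.p6. Because only 1 of 39 member starts in the deposited table lay within 1000 bases of that build's, its coordinates were not mixed with the deposited ones.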

Additional observations from a re-analysis of the deposited data

How the results depend on the processing

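Over 20 alternatives, the calls kept in all of them were 9 of 14 in bleomycin against control (Ifit3, Irf7, Irf9, Stat2, Mx1, Cmpk2, Lgals3bp, Trim21 and Sp100), 6 of 9 in LNP against control (Ifit3, Irf7, Isg15, Mx1, Apobec3 and Lgals3bp) and 0 of 7 in LNP against bleomycin. No called member changed direction. Irf7 in LNP against bleomycin, not called with all libraries, was called lower at -0.34 with library weights, at -0.38 without LNP replicate 3 (range -0.38 to 0.27 on leaving out each library) and at -0.38 with LNP replicate 3 and control replicate 2 both left out. Members called higher in LNP against bleomycin numbered 13 with DESeq2, 4 with no count filter, 2 in the fit of the 2 groups only, 4 by limma on FPKM with no filter, 30 with library weights and 28 with both libraries left out, and 2 were called lower with weights and 2 with both left out. In LNP against control 17 were called higher with weights and 17 with both left out, and 1 lower with weights (Trim21). In bleomycin against control 13 were higher and 16 lower with weights, and 11 higher and 14 lower with both left out. DESeq2 called 9.47% of the genes it gave an adjusted p higher in LNP against bleomycin. With both libraries left out, 17.7% of all genes were called higher and 15.9% lower in LNP against bleomycin. The shares were 10.1% and 7.01% in LNP against control, and 23.1% and 23.4% in bleomycin against control. The weights were 0.1344 for LNP replicate 3, 0.227 for control replicate 2 and 9.971 for bleomycin replicate 2. Leaving out each library in turn gave 0 to 23 higher and 0 to 1 lower in LNP against bleomycin, 6 to 15 higher and 0 lower in LNP against control, and 4 to 11 higher and 5 to 9 lower in bleomycin against control. The calls over all genes moved as well, from 84 to 2987 higher and 18 to 2297 lower in LNP against bleomycin. They ran from 491 to 1369 higher and 226 to 963 lower in LNP against control. In bleomycin against control they ran from 1951 to 4374 higher and 2412 to 4728 lower. All genes called higher and lower ranged from 218 to 5811 and 86 to 5098 in LNP against bleomycin, 679 to 2657 and 331 to 2901 in LNP against control, and 2557 to 5824 and 3274 to 6940 in bleomycin against control over the alternatives that kept all libraries or left out 2. The cause of these shifts was not tested. For no filter, the fit of 2 groups, limma and the library weights, the share of all genes was not set beside each member count. Those counts are therefore no result about the members.

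The labels do not say whether the replicate numbers pair the samples. Deviations of same-numbered libraries correlated at -0.07 to 0.08, and 1 of 9 libraries was most like its own number. These values show no sign of pairing, but with 3 libraries a group they cannot exclude it. With the replicate block 2 members were called higher in LNP against bleomycin, a count without the share of all genes beside it. With 3 libraries a group, an exact permutation test cannot go below p = 0.1, so calls rest on the spread shared across genes.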
